A study of Mus musculus with 5480 samples.

Results

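The 9 genes Cacna1c, Cacna1d, Cacna1h, Kcnma1, Kcnmb1, Kcna5, Kcnj8, Abcc9 and Trpc6 encode subunits of calcium, potassium and non-selective cation channels that are known from smooth muscle and from the mural cells of vessels. They were chosen by name, and all 9 were found among the 18072 gene rows of a table of read counts from 5480 single cells of mouse distal lung. The cells had been sorted by flow cytometry as mesenchymal cells, which are the fibroblasts, muscle cells and vessel-wall cells of the tissue, and the submitters had placed each cell in 1 of 16 subtypes. The cells came from 10 mice, 1 female and 1 male in each of 5 groups: 4 ages kept in normal air (E18.5, P1, P7 and P21) and 1 group kept in hyperoxia and taken at P7, where E is the embryonic and P the postnatal day. The genotype, the strain, the oxygen level and the length of the exposure were not given in the sources used here. No transgene or agent other than oxygen was named for any group.

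Voltage-gated calcium channels open on depolarization, and the calcium that enters through them starts contraction in smooth muscle. Potassium channels oppose this: when they open, the membrane hyperpolarizes and calcium channels close. Their activity is set by calcium and voltage in the BK channel (Kcnma1 with Kcnmb1), by voltage in the channel of Kcna5, and by ATP and other nucleotides in the KATP channel (Kcnj8 with Abcc9). Trpc6 encodes a channel opened by diacylglycerol after activation of receptors that signal through phospholipase C. In the lung, these channels are studied for the tone of pulmonary arteries and of airways.

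Each mouse contributed 311 to 633 cells and between about 294155000 and 671766000 reads assigned to genes, with a median of 774305 reads per cell. Levels are given as CPM, the counts of a gene scaled to a common total of reads, from the summed counts of 1 mouse and subtype, as mean ± SD over the mice that had at least 10 cells of the subtype. To compare shares of cells with a read at equal depth, 100000 reads were drawn from every cell; 168 cells had fewer and were not used for shares. Values were reads and not molecules, so that 1 amplified molecule could give many reads. The intervals of shares, by the Wilson method at 95%, cover counting error only. The cell names carry 9 batch codes, whose meaning is not given in the sources used here. Both mice in hyperoxia had codes of their own, apart from a few cells of a CD31 sort, so that batch code and hyperoxia cannot be told apart. The male mice in normal air shared 1 code in the mesenchymal sort. Among female CD31-sorted cells in normal air, those of P7 carried another code than those of E18.5, P1 and P21, so code and age may go together in females. Of the cells, 69 came from a CD31 sort and 2 from a CD45 sort.

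The subtype names were set against marker genes. The 7 pericyte markers (among them Pdgfrb, Cspg4 and Higd1b) summed to between 7303 and 10823 CPM in the pericyte libraries and to between 1603 and 4193 CPM in vascular smooth muscle. The 8 contractile markers (among them Acta2, Myh11 and Cnn1) summed to between 12932 and 28849 CPM in vascular smooth muscle and to between 15282 and 23118 CPM in early airway smooth muscle. In the 2 libraries labelled airway smooth muscle, both of P21, the same list reached only 2343 and 2754 CPM, while the 6 fibroblast markers summed to between 3615 and 4193 CPM, against 3964 to 5485 CPM in early airway smooth muscle and 1953 to 5720 CPM in vascular smooth muscle. The name of that subtype is therefore used here only as the authors' label. Endothelial markers summed to at most 99.97 CPM in any pericyte library.

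Cacna1c, which encodes the pore of the main L-type calcium channel of smooth muscle, was read in every class of contractile and mural cells. Its level was 87.5 ± 33.1 CPM in early airway smooth muscle (SD, n = 6 mice). It was 86.6 ± 36.5 CPM in pericytes and 81.7 ± 27.8 CPM in vascular smooth muscle (SD, n = 8 each). These 3 subtypes did not differ beyond their spread. Alveolar fibroblasts stood close by at 71.7 ± 30.5 CPM (SD, n = 2), and myofibroblasts were at 39.4 ± 13.3 CPM (SD, n = 6). At equal depth, 57.1% of early airway smooth muscle cells (95% interval 51.3 to 62.7%, 161 of 282 cells) had a read, against 47.4% of vascular smooth muscle cells and 46.2% of pericytes. Reads of the gene were not restricted to muscle, since 39.5% of alveolar fibroblasts also held one.

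Cacna1d encodes a second L-type pore, which opens at more negative voltages and is known from pacemaker, neuronal and endocrine cells. Its pattern ran against the heading under which the 9 genes were grouped, since its highest levels were in fibroblasts and not in contractile cells. The level was 192 ± 5.98 CPM in alveolar fibroblasts (SD, n = 2), 165 ± 31.1 CPM in fibroblast precursors (SD, n = 2) and 163 ± 62.7 CPM in early alveolar fibroblasts (SD, n = 8). Neighbours in this order did not differ beyond their spread. In vascular smooth muscle, early airway smooth muscle and airway smooth muscle, the means were 3.62, 2.38 and 1.72 CPM. Pericytes lay between, at 46.2 ± 27.3 CPM (SD, n = 8). At equal depth, 71.0% of 1533 early alveolar fibroblasts held a read of Cacna1d, against 21.5% of 275 pericytes.

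By mouse, Cacna1d in early alveolar fibroblasts at P7 was 201 CPM in the female and 213 CPM in the male, and in hyperoxia 176 and 177 CPM. At P1 the female was at 199 CPM and the male at 153 CPM. At E18.5 the male, with 24 cells, was at 173 CPM, and the female library of 14 cells stood apart at 15.4 CPM. In that subtype the 2 calcium channel genes were read together in 431 cells, among 519 cells with Cacna1c and 1088 with Cacna1d. In early airway smooth muscle only 9 of 282 cells had a read of Cacna1d, and 7 of these also had Cacna1c.

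A part of the exons of Cacna1d, 589 bases, overlaps exons of Chdh on the opposite strand in the GENCODE M21 annotation. Chdh encodes choline dehydrogenase, and its level was 28.3 ± 28.7 CPM in alveolar fibroblasts (SD, n = 2), 12.9 ± 11.9 CPM in early alveolar fibroblasts (SD, n = 8) and 0.21 ± 0.46 CPM in pericytes (SD, n = 8). Whether reads were counted by strand is not given in the sources used here, so reads of these 2 genes in the shared bases cannot be told apart. The same holds for Kcnma1, Abcc9 and Cacna1h, which share 1016, 158 and 158 exon bases with genes on the opposite strand that are not rows of the table.

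Cacna1h, the pore of a T-type calcium channel that opens near the resting voltage, was close to the limit of detection. Its highest mean was 4.23 ± 5.07 CPM in early airway smooth muscle (SD, n = 6), where 11 of 282 cells (3.90%) had a read. The highest libraries were those of hyperoxia, at 5.34 CPM (female) and 13.4 CPM (male), and the P1 male at 5.06 CPM, while the P1 female was at 0.42 CPM and the P7 mice in normal air at 0.31 and 0.80 CPM. The P7 mice in normal air and in hyperoxia did not overlap, and the difference did not pass the test (edgeR adjusted p = 1).

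Kcnj8, the pore of the KATP channel, and Abcc9, its sulfonylurea receptor subunit, are neighbours on chromosome 6 of the mouse in the reference annotation. They are known together as marks of pericytes in brain and other organs. In these lung cells the highest mean of Kcnj8 over all ages was in early airway smooth muscle and not in pericytes. It was 635 ± 159 CPM in early airway smooth muscle (SD, n = 6), 402 ± 31.3 CPM in airway smooth muscle (SD, n = 2) and 280 ± 313 CPM in pericytes (SD, n = 8). This order depends on the ages in each subtype: early airway smooth muscle had no library of E18.5, the age at which pericytes reached 829 and 688 CPM, close to the 809 and 839 CPM of early airway smooth muscle at P1. The myofibroblast and smooth muscle precursors followed at 277 ± 16.3 CPM (SD, n = 2), which did not differ from pericytes beyond the spread. Then came myofibroblasts at 193 ± 195 CPM (SD, n = 6), and early adventitial and adventitial fibroblasts at 127 ± 67.9 CPM (SD, n = 8) and 125 ± 34.0 CPM (SD, n = 2). At equal depth, 77.7% of early airway smooth muscle cells (72.4 to 82.1%, 219 of 282) had a read of Kcnj8, against 24.4% of pericytes (67 of 275) and 9.90% of vascular smooth muscle cells (19 of 192).

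The order of Abcc9 was different. Airway smooth muscle of P21 was at 230 ± 46.3 CPM (SD, n = 2). Pericytes were at 214 ± 196 CPM (SD, n = 8) and adventitial fibroblasts of P21 at 169 ± 64.0 CPM (SD, n = 2). These 3 did not differ beyond their spread, but the spread of pericytes took in the ages from E18.5 to P21. At P21 alone, pericytes were at 44.7 and 138 CPM, below both airway smooth muscle libraries at 197 and 262 CPM. Adventitial fibroblasts, at 124 and 214 CPM, overlapped with each of them. Early airway smooth muscle, which was highest for the pore, was at 79.7 ± 48.8 CPM (SD, n = 6). Per kilobase of exon, Kcnj8 in that subtype was 249 RPKM (CPM divided by exon length in kilobases), and Abcc9 was 9.51 RPKM. In airway smooth muscle Kcnj8 was 158 RPKM and Abcc9 27.4 RPKM. By share of cells, Abcc9 was most frequent in adventitial fibroblasts, at 65.1% of 238 cells.

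The sequences before the starts of the 2 KATP subunit genes are shown because their levels were alike over libraries. Each is the 250 bases upstream of the RefSeq start in GRCm38.p6, on the minus strand, at chr6:142571615-142571864 for Kcnj8 and chr6:142702275-142702524 for Abcc9. Capitals mark an E-box of the form CANNTG, the element read by basic helix-loop-helix factors, searched on both strands.
Kcnj8: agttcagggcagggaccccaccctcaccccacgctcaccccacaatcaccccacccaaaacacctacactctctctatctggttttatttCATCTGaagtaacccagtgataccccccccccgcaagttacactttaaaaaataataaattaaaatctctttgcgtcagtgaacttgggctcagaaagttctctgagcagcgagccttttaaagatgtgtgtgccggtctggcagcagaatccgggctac
Abcc9: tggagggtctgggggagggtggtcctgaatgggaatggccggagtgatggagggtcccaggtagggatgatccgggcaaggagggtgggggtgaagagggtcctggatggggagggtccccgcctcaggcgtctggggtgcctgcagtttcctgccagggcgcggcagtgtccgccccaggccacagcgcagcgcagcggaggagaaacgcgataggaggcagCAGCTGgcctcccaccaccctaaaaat
The E-box lies with its first base 160 bases before the start in Kcnj8 and 27 bases before it in Abcc9. Such an element occurs in 66.2% of 32536 mouse promoter windows of the same length, so that its presence in both is common. Neither window holds a CArG box, the element bound by serum response factor, which occurs in 1.48% of windows. The element TGGGAA of RBPJ, searched on both strands and with a background of 21.6%, was found in the window of Abcc9 and not in that of Kcnj8.

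Kcnj8 in pericytes was lower at each step from E18.5 to P7, and P21 overlapped with P7. At E18.5 they were 829 CPM in the female and 688 CPM in the male, at P1 326 and 191 CPM, at P7 50.1 and 46.3 CPM, and at P21 28.3 and 82.8 CPM. The mice of E18.5 did not overlap with those of P1, nor those of P1 with those of P7. At equal depth, 57.1% of pericytes had a read at E18.5 (16 of 28), 51.2% at P1 (22 of 43), 14.5% at P7 (8 of 55) and 12.8% at P21 (18 of 141). In edgeR's quasi-likelihood test on summed counts, the difference from P1 to P7 was -2.42 on the log2 scale (SE 0.70, adjusted p = 1), and that from E18.5 to P1 was -1.55 (SE 0.68, adjusted p = 0.845). Neither passed the threshold of 0.05 after adjustment over 11894 genes. The background was as low: 0% of genes were called from P1 to P7 and 0.042% from E18.5 to P1.

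Abcc9 in pericytes was 416 CPM in the female and 598 CPM in the male at E18.5, and 189 and 165 CPM at P1. At P7 it was 21.2 and 137 CPM, and at P21 44.7 and 138 CPM. At the 2 later ages the male was the higher mouse, and the ages overlapped. Cells holding reads of both subunits made up 50.0% of pericytes at E18.5 (14 of 28), 23.3% at P1 (10 of 43), 3.64% at P7 (2 of 55) and 0.71% at P21 (1 of 141). At E18.5, 87.5% of pericytes with Kcnj8 also had Abcc9, against 41.7% of those without Kcnj8. Sums per mouse alone do not separate fewer cells with the transcript from less RNA per cell, but the single cells also gave a share. The mean of Kcnj8 was 758 CPM at E18.5 and 55.5 CPM at P21, with a read in 16 of 28 and 18 of 141 cells. Abcc9 was read in 19 of 28 and 19 of 141 cells. Share and level were thus lower together, and the part of each was not tested. The pericyte marker list summed to 7303 and 8491 CPM at E18.5, 10823 and 9725 CPM at P1, 8217 and 8870 CPM at P7, and 8489 and 9631 CPM at P21, so that it was not lower at the later ages.

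Myofibroblasts gave a like pair of values over a shorter span. These are the alpha-actin-rich fibroblasts of the ducts and septa of the growing alveoli. Kcnj8 was 436 CPM (female) and 451 CPM (male) at P1 and 58.6 and 63.5 CPM at P7, with 45.9% of cells (28 of 61) against 12.4% (41 of 330) holding a read. The groups did not overlap, and the difference of -2.92 (SE 0.43) had an unadjusted p of 0.000335 and an adjusted p of 0.343 by edgeR's quasi-likelihood test. None of 13380 genes, 0%, was called in that comparison, while 1072 had an unadjusted p under 0.05. DESeq2 called this difference, and so did edgeR without the P1 female (adjusted p = 0.00266) or without the P1 male (adjusted p = 0.00243). Abcc9 in the same libraries was 103 and 48.1 CPM at P1 and 9.44 and 42.1 CPM at P7, with 42.6% and 5.15% of cells holding a read.

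In airway smooth muscle Kcnj8 was lower at each later age, and its lowest library was at 353 CPM. Early airway smooth muscle was at 809 CPM (female) and 839 CPM (male) at P1 and at 615 and 605 CPM at P7. The P21 class was at 423 and 353 CPM. It joins the cells labelled airway smooth muscle with 4 female and 2 male cells labelled early airway smooth muscle. The ages did not overlap, but the steps were small beside those in pericytes. At equal depth, 81.6% (female) and 90.9% (male) of cells had a read at P1, 70.7% and 69.8% at P7, and 53.2% and 30.4% at P21. Most P21 cells carry the label whose contractile marker sum was low, so the steps to P21 may compare unlike cells. From P1 to P21 the difference was -0.78 (SE 0.31, edgeR adjusted p = 0.318), where 1.04% of 13496 genes were called. Abcc9 had another order, with 139 and 138 CPM at P1, 42.2 and 83.4 CPM at P7 and 253 and 183 CPM at P21. From P7 to P21 its difference was 2.18 (SE 0.49, edgeR adjusted p = 0.0846), just outside the threshold, in a comparison where 1.13% of genes were called. It passed with the cells thinned to equal depth (2.40, edgeR adjusted p = 0.00597) and in DESeq2.

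Vascular smooth muscle at P1 and P7 had little Kcnj8, and the level at P21 came from few cells. It was 13.3 CPM (female) and 2.56 CPM (male) at P1 and 0.0377 and 0.0371 CPM at P7, where none of 54 thinned cells had a read, which allows a share of up to 5.56%. At P21 it was 163 and 283 CPM, from 5 of 51 cells. A single cell supplied 99.4% of the female's reads and 75.8% of the male's, and without it the values were 1.04 and 72.8 CPM. Abcc9 at P21 was 96.2 and 264 CPM, with 77.5% and 85.2% from 1 cell each. From P7 to P21 neither passed the test (edgeR adjusted p = 0.218 for Kcnj8 and 0.280 for Abcc9), where 0.0886% of 12417 genes were called. Kcnj8 passed without the hyperoxia female (edgeR adjusted p = 0.00614) or the hyperoxia male (0.00941), mice that enter only the estimate of the spread. At E18.5 there were only 7 and 9 vascular smooth muscle cells, too few for the tests and for the mean. Their Kcnj8 was 1122 CPM in the female and 94.5 CPM in the male, and 7 of 15 thinned cells held a read. Both mice of this age were thus above both mice of P1.

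Adventitial fibroblasts, which surround vessels and airways, carried both subunits. At E18.5 Kcnj8 was 62.2 CPM (female) and 22.7 CPM (male), and at P1 it was 116 and 219 CPM, without overlap (2.14, SE 0.54, edgeR adjusted p = 0.243). In this comparison 0.17% of 15289 genes were called. Abcc9 was 26.6 and 21.9 CPM at E18.5 and 61.0 and 47.1 CPM at P1 (1.14, SE 0.45, edgeR adjusted p = 0.4996). For both subunits the P1 mice were thus above the E18.5 mice here, and below them in pericytes, while neither difference passed the test in either class.

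The 1 member change that passed the test was Kcnj8 in alveolar fibroblasts between E18.5 and P1. At E18.5 no read of the gene was found in either mouse (14 and 24 cells), and at P1 the levels were 34.5 CPM in the female and 27.9 CPM in the male. By reads, Kcnj8 was at least 173.6-fold higher at P1, with 3 reads over both E18.5 mice as the floor. The fitted change had an edgeR adjusted p of 0.0289. At equal depth, 0 of 29 cells held a read at E18.5 and 66 of 703 at P1. The floor counts reads and does not cover the small number of cells at E18.5. This comparison had 966 of 15670 genes called (6.16%), and the median change of all genes was 1.36 on the log2 scale. The E18.5 cells of this subtype were shallow and few: they held a median of 1042 and 1232 genes per cell against 2879 and 3001 at P1. Markers of other cells also differed: the epithelial list summed to 1031 CPM in the E18.5 female and 25.9 CPM in the male, against 121 and 100.3 CPM at P1. The immune list summed to 254 and 0 CPM at E18.5 and 3.89 and 4.33 CPM at P1, and the pericyte list to 558 and 137 CPM against 60.8 and 73.0 CPM. The part of depth and of these markers in the result was not tested. The call was lost with only the 4 mice compared (edgeR adjusted p = 0.572) and without any 1 of the 8 mice of the later ages and hyperoxia (edgeR adjusted p between 0.0578 and 0.157). Without the E18.5 male, Abcc9, Cacna1c and Cacna1d were called as well (edgeR adjusted p = 0.0359, 0.0150 and 0.00462).

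With ages pooled, cells with Kcnj8 held Abcc9 more often than cells without it in every subtype large enough to be counted. This is a description of cells that share a library and a depth. In early alveolar fibroblasts, 24.7% of cells with Kcnj8 had Abcc9, against 5.18% of cells without, and in vascular smooth muscle 52.6% against 13.9%. Among adventitial fibroblasts, nearly all of P21, 88.2% of cells with Kcnj8 also had Abcc9, against 50.3% of cells without. In airway smooth muscle the shares were 72.9% and 39.1%, and in early airway smooth muscle 42.5% and 25.4%, where the first was also the higher at P1 (52.9% and 33.3%), at P7 (34.0% and 19.5%) and in hyperoxia (46.4% and 33.3%). Pericytes of all ages together gave 44.8% and 21.6%, but within an age only E18.5 did so: the shares were 45.5% and 47.6% at P1, 25.0% and 23.4% at P7, and 5.56% and 14.6% at P21. In early airway smooth muscle, 126 of the 219 cells with Kcnj8 had no read of Abcc9 at this depth.

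**Figure D1:**
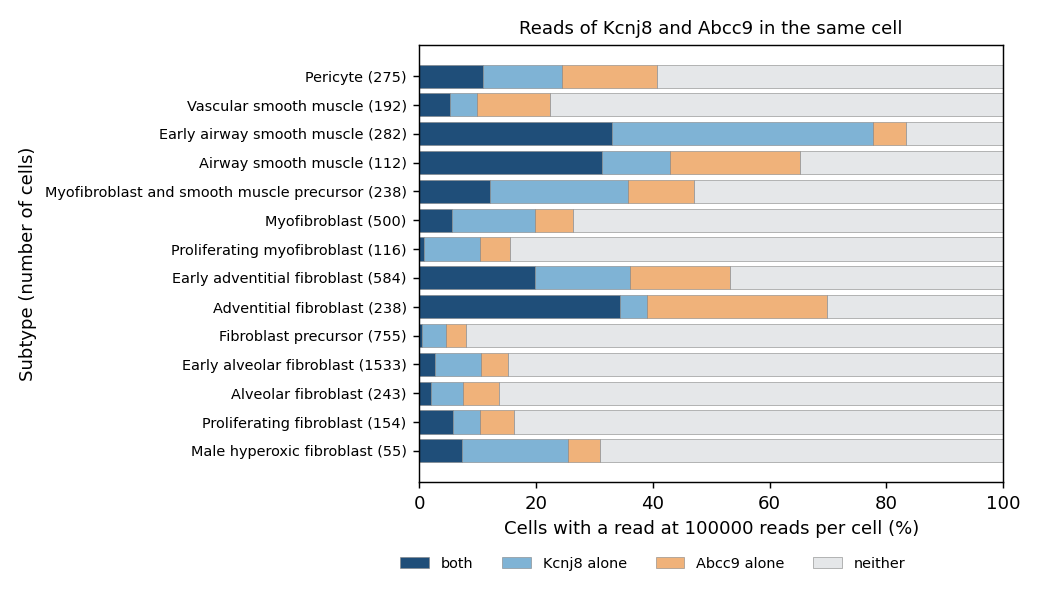
Share of cells of each subtype with reads of both KATP subunit genes, of Kcnj8 alone, of Abcc9 alone or of neither, at 100000 reads per cell; numbers of cells are in brackets. Early airway smooth muscle is mostly Kcnj8 alone or both, whereas adventitial fibroblasts are mostly both or Abcc9 alone.

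Kcnma1 encodes the pore of the large-conductance calcium-activated potassium (BK) channel, and Kcnmb1 the smooth muscle accessory subunit that raises its calcium sensitivity. Kcnma1 was highest in early airway smooth muscle at 136 ± 55.1 CPM (SD, n = 6), beyond the spread of the next subtype, airway smooth muscle, at 46.4 ± 45.5 CPM (SD, n = 2). Precursors, myofibroblasts and vascular smooth muscle lay at 16.3, 13.4 and 9.30 CPM, and pericytes at 1.64 CPM. At equal depth, 56.0% of early airway smooth muscle cells (50.2 to 61.7%, 158 of 282) had a read, against 4.69% of vascular smooth muscle cells (9 of 192) and 1.45% of pericytes (4 of 275). By age, early airway smooth muscle was at 76.7 and 65.6 CPM at P1 and at 163 and 205 CPM at P7, and the P21 class at 89.6 and 13.2 CPM, each given as female then male. From P7 to P21 the difference was -1.77 (SE 0.73, edgeR adjusted p = 0.443); without the P21 female it was -3.43 and passed (edgeR adjusted p = 0.0302). In myofibroblasts Kcnma1 was 0.0446 CPM (female, from 1 read) and 18.4 CPM (male) at P1, and 7.99 and 16.6 CPM at P7. Without the P1 male the difference from P1 to P7 was 7.91, with that 1 read as the only one at P1.

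Kcnmb1 did not follow Kcnma1 over subtypes. It was 53.9 ± 33.5 CPM in vascular smooth muscle (SD, n = 8), 39.1 ± 40.7 CPM in pericytes (SD, n = 8) and 32.1 ± 25.2 CPM in early airway smooth muscle (SD, n = 6), and these 3 did not differ beyond their spread. In vascular smooth muscle 19.3% of cells (37 of 192) had a read of Kcnmb1, and 1 of these 37 also had Kcnma1. In early airway smooth muscle 25 of the 34 cells with Kcnmb1 had Kcnma1 too. Over all ages, Kcnma1 thus stood out in early airway smooth muscle, while no subtype stood out beyond the spread for Kcnmb1.

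By age, Kcnmb1 in early airway smooth muscle was 9.74 CPM (female) and 7.25 CPM (male) at P1 and 60.7 and 65.3 CPM at P7, and the P21 class was at 14.3 and 2.07 CPM. That class includes 4 female and 2 male cells labelled early airway smooth muscle. Without them the female was at 0.0979 CPM and the male at 2.16 CPM, so the female's class value came mostly from those 4 cells. P7 overlapped with neither of the other ages. The differences were 2.89 (SE 1.14, edgeR adjusted p = 0.919) and -2.80 (SE 1.18, edgeR adjusted p = 0.450). From P1 to P7 none of 13496 genes, 0%, was called. Single cells carried much of the signal: 1 cell gave 94.3% of the reads of the P1 male and 62.9% of those of the P7 female. In vascular smooth muscle Kcnmb1 was 24.8 and 13.5 CPM at P1, 36.1 and 101 CPM at P7 and 103 and 33.7 CPM at P21, and the 2 later ages overlapped. In pericytes at E18.5, at 20.1 and 131 CPM, all reads of each mouse came from 1 cell.

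Kcna5, a voltage-gated potassium channel known for setting the resting potential of pulmonary artery muscle, was read almost only in vascular smooth muscle. Its level there was 30.9 ± 26.7 CPM (SD, n = 8), with reads in 25.0% of cells (19.4 to 31.6%, 48 of 192). No pericyte of 275 had a read at equal depth, a count whose upper limit is 1.09%. Among 282 early airway smooth muscle cells, 1 had a read. The mean in those 2 subtypes was 0.01 and 0.06 CPM. Proliferating fibroblasts reached 7.19 CPM through 1 library, that of the P7 female at 35.9 CPM, where 2 cells had reads. That library held 1 cell of the CD31 sort, and with the mesenchymal sort alone the mean of the subtype was 2.40 CPM.

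By age, Kcna5 in vascular smooth muscle was 36.2 CPM (female) and 78.6 CPM (male) at P1 and 8.57 and 8.79 CPM at P7, without overlap. At P21 it was 22.8 CPM in the female and 0 in the male, where the limit that a count of 0 reads allows was 0.145 CPM. That limit does not cover the small number of cells: the male library held 19 cells. In the female, 18.8% of cells had a read at equal depth. In hyperoxia at P7 it was 35.8 and 56.5 CPM, above both mice in normal air, with 42.9% of cells (18 of 42) against 14.8% (8 of 54) holding a read. The difference of 2.21 (SE 2.18) did not pass edgeR's test (adjusted p = 1), and 0% of 12417 genes were called. Vascular smooth muscle cells in hyperoxia also held more genes per cell, a median of 3755 (female) and 4608 (male) against 2254 and 2018. The part of this, and of the batch code, in the share of cells was not tested.

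Trpc6 was highest in pericytes, beyond the spread of the next subtype. Its level was 544 ± 273 CPM in pericytes (SD, n = 8), 37.2 ± 22.1 CPM in vascular smooth muscle (SD, n = 8), 23.0 ± 14.7 CPM in the myofibroblast and smooth muscle precursors (SD, n = 2) and 8.34 ± 7.12 CPM in myofibroblasts (SD, n = 6). Every other subtype with a mean was under 3 CPM. At equal depth, 79.3% of pericytes (74.1 to 83.6%, 218 of 275) had a read, against 10.4% of vascular smooth muscle cells and 2.84% of early airway smooth muscle cells. Of the 19 proliferating pericytes, a subtype with too few cells per mouse for a mean, 13 had a read.

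The window before the start of Trpc6 is shown because it holds a CArG box, which 1.48% of mouse promoter windows of this length do. It is given 5′ to 3′ on the plus strand at chr9:8543892-8544141 of GRCm38.p6, from RefSeq, with the box in capitals.
Trpc6: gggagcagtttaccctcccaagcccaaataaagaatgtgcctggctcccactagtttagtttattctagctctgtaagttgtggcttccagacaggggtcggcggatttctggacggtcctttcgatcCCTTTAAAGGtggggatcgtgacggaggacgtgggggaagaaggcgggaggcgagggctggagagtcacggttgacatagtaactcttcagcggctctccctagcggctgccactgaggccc
The first base of the box lies 122 bases before the start. Among the 8 members with an entry in the promoter table, Trpc6 was the only one with this element. Its own highest level was in pericytes, whose contractile marker sum was 814 to 5821 CPM. The match is a description of letters and not of binding.

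Trpc6 in pericytes was 325 CPM in the female and 86.8 CPM in the male at E18.5. It was 474 and 771 CPM at P1, 577 and 496 CPM at P7, and 985 and 635 CPM at P21. Both E18.5 libraries lay below all later ones, P21 lay above P7, and the step from E18.5 to P1 was 1.80 (SE 0.62, edgeR adjusted p = 0.753). The share of cells with a read was 64.3% at E18.5 (18 of 28) and 83.7% (36 of 43), 76.4% (42 of 55) and 80.9% (114 of 141) at the later ages. In these pericyte libraries E18.5 was the age with the highest Kcnj8 and the lowest Trpc6; the later ages did not stand in opposite order for the 2 genes. Only 5 and 3 pericytes came from the mice in hyperoxia, too few for a test; all 8 had a read of Trpc6.

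Hyperoxia at P7 called no member in any of the 5 classes that could be tested. Of the member tests there, 4 had an unadjusted p under 0.05. No gene at all passed in these comparisons (0% in each), although between 319 and 1224 genes per class had an unadjusted p under 0.05, and DESeq2 called 1 member, Kcnj8 in vascular smooth muscle. In early airway smooth muscle, 6 of 8 members tested did not overlap between the groups, where 0% of genes were called. The share of all genes without overlap was not counted, so these 6 have no background to be read against. Cacna1d and Cacna1h, at 3.01 and 7.86 CPM and at 5.34 and 13.4 CPM, were higher in the hyperoxia mice, and 4 members were lower. Kcnj8 was 481 and 462 against 615 and 605 CPM, and Cacna1c 82.5 and 81.9 against 113 and 135 CPM. Kcnmb1 was 20.3 and 29.1 against 60.7 and 65.3 CPM, and Abcc9 40.0 and 35.3 against 42.2 and 83.4 CPM. Each had an edgeR adjusted p of 1. Shares of cells were higher in hyperoxia for 3 of these 4. Kcnj8 was read in 88.5% (69 of 78) against 70.3% (97 of 138), Abcc9 in 44.9% against 29.7% and Cacna1c in 65.4% against 58.7%, while Kcnmb1 was read in 8.97% against 12.3%. The cells in hyperoxia held a median of 4044 and 5535 genes against 3773 and 3535. In vascular smooth muscle, Abcc9 was 33.3 and 26.6 CPM against 0.91 and 6.12 CPM (3.09, SE 1.26, edgeR adjusted p = 1).

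Over all 22 comparisons, 1 of 176 member tests (0.568%) passed, against 1350 of 301824 gene tests (0.447%). At an unadjusted p under 0.05 there were 28 member tests (15.9%), against 7.04% of all gene tests. DESeq2 called 15 member tests in 9 comparisons. In comparisons not yet described, the share of genes called was 0.0252% in pericytes from P1 to P21, 0.0504% in pericytes from P7 to P21 and 0.0805% in vascular smooth muscle from P1 to P21. It was 0.124% in adventitial and 0.0702% in alveolar fibroblasts from P7 to P21, and 0% in both from P1 to P7. The comparisons share groups and so are not independent of each other. With 2 mice in each group, an exact permutation test of 1 value cannot go below p = 0.333.

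A list of 110 other channel and calcium-handling genes placed the members among their pathway, and 90 of these were rows of the table. In airway smooth muscle 1 of 60 tested was called from P1 to P21, where 1.04% of all genes were called, and it was higher later: Kcns3, a silent subunit that modifies delayed-rectifier potassium channels. It was 44.5 CPM (female) and 10.4 CPM (male) at P1 and 244 and 253 CPM at P21 (3.67, SE 0.63, edgeR adjusted p = 0.0301). Among 72 tested in alveolar fibroblasts, 3 were called from E18.5 to P1, where 6.16% of all genes were called, all higher at P1: Orai1, a pore of store-operated calcium entry, Slc8a1, a sodium-calcium exchanger, and Kcnb2, a delayed-rectifier subunit. Kcnb2 had no read at E18.5 and, by reads, was at least 62.6-fold higher at P1. That bound does not cover the small number of cells at E18.5 either. No listed gene was called in pericytes (41 tested), vascular smooth muscle (50), myofibroblasts (53) or adventitial fibroblasts (69).

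By level per length, the listed gene that led in mural and early airway muscle cells was Kcnk3, an acid-sensitive potassium leak channel of the tandem-pore family. It was 151 RPKM in pericytes, 80.3 RPKM in vascular smooth muscle and 83.6 RPKM in early airway smooth muscle. On the same scale, Trpc6 in pericytes was 107 RPKM. In airway smooth muscle of P21 Kcns3 led at 83.9 RPKM, and in myofibroblasts Atp2b1, a plasma membrane calcium pump, at 71.5 RPKM.

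The genes most like each member were sought by Pearson's r of log2(CPM + 1) over 64 libraries of a mouse and subtype, among 10861 genes with a mean of at least 5 CPM. The libraries of a mouse mostly share a batch code, and those of a subtype share cells of a kind, so r is given as a description. For Trpc6 the nearest were Higd1b (r = 0.905), Gja4 (0.870) and Gucy1a1 (0.854). Kcnj8 and Abcc9 were each other's nearest gene at r = 0.771, followed for Kcnj8 by Enpp2 (0.638) and Aspn (0.617). For Kcnma1 they were Scx (0.802), Rai2 (0.799) and Ifitm10 (0.787). For Kcnmb1 they were the myosin light chain gene Myl9 (0.764), Mcam (0.746) and Trpv2 (0.731), and its r with Kcnma1 was 0.349. For Cacna1d they were Tns3 (0.803), Tril (0.801) and Slc38a5 (0.799), and its r with Cacna1c was -0.11. For Cacna1c they were Lmbrd1 (0.725), Col4a2 (0.706) and Flna (0.688). Kcna5 and Cacna1h were under the level limit.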

How the data were processed

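Single cells of the distal lung of 10 mice had been sequenced in plates after Tn5 tagmentation, without an extraction step, per the labels' protocols. The deposited values were whole-number read counts per gene and cell, which the authors had not normalized, and no molecular identifiers are named. The submitters' processing notes list STAR 2.5.2b and HTSeq 0.10 beside GRCh38, a human build, for these mouse samples, so the build is treated as not known and promoter coordinates are those of RefSeq. Strand use and filters are not given in the sources used here. Subtypes were the authors' labels; doublets were not called here. Gene lengths came from GENCODE M21 (99.8% of symbols matched), and promoters from RefSeq, GRCm38.p6, with entries for 8 members.

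Counts were summed per mouse and class (early and later airway smooth muscle, alveolar and adventitial fibroblasts each joined), with at least 10 cells. edgeR 4.0.16 in R 4.3.3 fitted all groups of a class (TMM, filterByExpr, group and sex), with quasi-likelihood tests, two-sided, and Benjamini-Hochberg adjustment over all genes at 0.05. Each group had 1 mouse of each sex, so the sex term served as the block; p-values measure the spread between mice. DESeq2 1.42.0, other size factors, no filter, thinned cells, other cell minimums, fewer mice and no sorts by CD31 or CD45 were alternatives. The procedure was tested on simulated data. Named were all members, listed genes called or highest in a class, and the 3 genes most like each member, except for a result that is not reported here. The members, lists and rules were chosen with earlier results of these data known.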

Additional observations from a re-analysis of the deposited data

Results flagged for a closer look

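Among members with a mean of at least 10 CPM at one of the ages, there were 5 cases in which both later libraries were higher by more than 1 on the log2 scale in one class and both lower by more than 1 in another class over the same step. Cases of opposite direction with smaller ratios, such as Kcnj8 in adventitial fibroblasts against pericytes from E18.5 to P1, are not counted. The difference between the classes was not tested in any of them. All values are log2 ratios of the later to the earlier age, female first.

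From E18.5 to P1, the ratio of Abcc9 was 1.20 and 1.11 in adventitial fibroblasts and -1.14 and -1.86 in pericytes. Over the same step that of Kcnj8 was at least 5.17 and 6.98 in alveolar fibroblasts, against a floor of 3 reads per mouse, and -1.35 and -1.85 in pericytes. The floor counts reads and not cells. From P1 to P21, the ratio of Kcnj8 was 3.61 and 6.79 in vascular smooth muscle, where 1 cell per mouse held most of the reads, and -3.53 and -1.20 in pericytes. From P1 to P7, the ratio of Kcnmb1 was 3.85 and 1.90 in pericytes and 2.64 and 3.17 in airway smooth muscle, and -1.05 and -2.21 in myofibroblasts. In the P1 female, 1 myofibroblast held 99.7% of the Kcnmb1 reads of its library.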

How the results depend on the processing

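Of the counts of members called under the alternatives to the 22 comparisons, 329 were within 1.5 times the reported count and 29 were not. DESeq2, which called 152 to 3634 genes per comparison against 0 to 966 by edgeR, gave other counts in 9: 1 member in adventitial fibroblasts E18.5 to P1, myofibroblasts P1 to P7, pericytes E18.5 to P1 and vascular smooth muscle in hyperoxia; 2 in airway smooth muscle P7 to P21, alveolar fibroblasts E18.5 to P1 and P7 to P21, and vascular smooth muscle P1 to P7; and 3 in vascular smooth muscle P7 to P21. With thinned cells, 1 member passed in airway smooth muscle P7 to P21 and 1 in vascular smooth muscle P7 to P21, where no filter also gave 1. With only the 4 mice compared there were 0 in alveolar fibroblasts E18.5 to P1, 1 in vascular smooth muscle P1 to P21 and 2 in P7 to P21. Leaving out 1 mouse gave 0 to 1 in airway smooth muscle P7 to P21, 0 to 4 in alveolar fibroblasts E18.5 to P1, 0 to 2 in myofibroblasts P1 to P7 and 0 to 1 in vascular smooth muscle P7 to P21; the cause was not tested. A group left with 1 mouse was assumed to vary like the others.

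Without the replicate block, the term for sex, Kcnj8 in alveolar fibroblasts from E18.5 to P1 stayed called (log2 change 15.24, edgeR adjusted p = 0.00932), and no count of members called moved. At E18.5 thinned alveolar fibroblasts were too few for that comparison. For the highest subtype of each member, 34 recomputed levels moved by less than their SD and 2 by more, and 13 shares stayed within their interval while 5 left it in cells as deposited. Cells with few reads of a low gene set the limit for Cacna1h, Kcna5 and Kcnmb1.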
